A study of Mus musculus with 3 samples.

Results

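Asgr1, Asgr2, Mgl2, and Clec10a encode C-type lectins that bind galactose, and they lie side by side on mouse chromosome 11. They are 4 of 31053 mouse genes listed for 3 single-cell RNA libraries. The genes were picked by name as neighbours after low values in VD3-treated cells had been measured in these libraries, so they were selected on the same contrast that is described here, and their ratios between the cultures are a description without a test. In the libraries, Co-Mac is an untreated culture of bone marrow cells of C57/BL6 mice kept in GM-CSF over 7 days, and VD-Mac is the same culture given 1,25-dihydroxy-cholecalciferol (VD3), the active form of vitamin D3, at 1 μM for 24 hours. The graft library (hSTSG) holds mouse cells from human split-thickness skin that had been under the skin of C57BL/6J mice for 14 days, pooled from 5 mice. Each condition is 1 library, so that a treatment effect and a difference between libraries cannot be told apart, and no value has a replicate.

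These receptors share a carbohydrate recognition domain that needs calcium. Asgr1 and Asgr2 form the asialoglycoprotein receptor, best known from hepatocytes, where it takes up glycoproteins whose terminal sialic acid has been lost. Clec10a and Mgl2, the mouse forms of the macrophage galactose-type lectin, are found on macrophages and dendritic cells of the dermis and other tissues, where they bind terminal galactose or N-acetylgalactosamine, and Mgl2 is also used as a marker of alternatively activated macrophages.

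The deposited counts are unique molecular identifiers (UMIs), each standing for 1 captured RNA molecule. Barcodes were kept if they had 300 genes or more, a total below 100000 gene UMIs, and a mitochondrial share below 10%. This left 7257 cells with 132574308 UMIs in Co-Mac, 8825 cells with 116461484 UMIs in VD-Mac, and 2144 cells with 22646544 UMIs in hSTSG. The median cell held 15804, 12089, and 6637.5 UMIs, respectively. Co-Mac and VD-Mac shared 15 kept barcodes, Co-Mac and hSTSG 3, and VD-Mac and hSTSG 6. Levels are given as CPM, the UMIs of a gene per 1000000 gene UMIs of the summed cells, with exact 95% Poisson intervals, shares with exact binomial intervals, and ratios with exact conditional binomial intervals, all of which cover counting error only.

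The cultures were not uniform. Clusters were made without the lectins and named from marker genes, and macrophage-like cells made up 15.4% of Co-Mac and 12.7% of VD-Mac cells. Mature dendritic cell-like cells, named from markers such as Ccr7 and Fscn1, made up 36.1% and 32.4%. Neutrophil-like cells made up 12.9% and 13.1%, dendritic cell-like and basophil or mast cell-like cells were fewer, and 33.4% and 39.4% of cells stayed in unnamed clusters. The size of the macrophage-like class depended on the clustering, with 1115 Co-Mac and 1122 VD-Mac cells in the main one. There were 2333 and 1488 with each culture clustered alone, and 1131 and 1886 at the lower cluster resolution of 0.3. The label of both cultures as macrophages therefore covers several cell classes, and each lectin is given by class.

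Asgr1, the major subunit of the hepatic receptor, was close to undetected in the cultures. Asgr1 (ENSMUSG00000020884) had 1 UMI in Co-Mac and 0 in VD-Mac, too few for a ratio. In hSTSG it had 23 UMIs in 22 cells. Whether VD3 changes Asgr1 could not be read from these counts.

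Over all kept cells, the other 3 lectins were lower in VD-Mac. Asgr2 (ENSMUSG00000040963), the minor receptor subunit, had 12160 UMIs in Co-Mac (91.7 CPM, interval 90.1 to 93.4) and 454 in VD-Mac (3.90 CPM, 3.55 to 4.27), a level 23.5-fold lower (21.4 to 25.9). Mgl2 (ENSMUSG00000040950) had 65186 UMIs (492 CPM, 488 to 495) and 4079 UMIs (35.0 CPM, 34.0 to 36.1), 14.0-fold lower (13.6 to 14.5). Clec10a (ENSMUSG00000000318) had 3894 UMIs (29.4 CPM, 28.5 to 30.3) and 572 UMIs (4.91 CPM, 4.52 to 5.33), 5.98-fold lower (5.48 to 6.54). By these values the decrease was largest for Asgr2 and smallest for Clec10a, which is also their order along the chromosome. The genes were selected on this contrast, so nothing is read from that order. It was another in mature dendritic cell-like cells and in some clusters, given below. Of the Asgr2 UMIs of Co-Mac, 80.5% were in 375 cells with at least 10 each. With mitochondrial UMIs under 5%, Asgr2 and Mgl2 were alike, at log2 ratios of -4.18 and -4.16, and Clec10a was at -2.72. Of 7732 genes that reached 10 CPM in at least 1 of the cultures, 4.63% were at least 2-fold lower and 2.16% at least 2-fold higher in VD-Mac. By size of decrease Asgr2 stood at position 4, Mgl2 at 11, and Clec10a at 34 among them, but the lectins were selected on this contrast and nothing is read from these positions.

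The decrease was present within the macrophage-like class. Different clusters held the class in the 2 cultures: cluster 5 held 1109 of 1115 such cells in Co-Mac and cluster 6 held 1053 of 1122 in VD-Mac. Cluster 5 scored highest for the markers of Trem2 macrophages and cluster 6 for general macrophage markers. In these cells Asgr2 went from 121 CPM (117 to 126) in Co-Mac to 1.69 CPM (1.16 to 2.39) in VD-Mac, 71.8-fold lower (50.8 to 105). Mgl2 went from 915 CPM (904 to 927) to 77.3 CPM (73.4 to 81.4), 11.8-fold lower (11.2 to 12.5). Clec10a went from 48.7 CPM (46.0 to 51.5) to 11.6 CPM (10.1 to 13.2), 4.21-fold lower (3.64 to 4.88). In this class 5.87% of 7525 genes were at least 2-fold lower. The spread among the lectins was therefore wider in macrophage-like cells than over all cells, with Asgr2 nearly absent and a part of Mgl2 and Clec10a left. The fold for Asgr2 rests on 32 UMIs in VD-Mac and depended on how the class was drawn. It was smaller by more than 1.5 times with other cluster resolutions and in a clustering redone without the cells richest in UMIs, at log2 ratios of -5.22 to -5.37 against -6.17. In these settings the class took in 1639 to 1886 VD-Mac cells in place of 1122, so that the part of the richest cells was not tested apart from class membership.

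A few cells of each culture fell in the cluster typical of the other, which sets both libraries side by side within 1 cluster. In cluster 5, the 69 VD-Mac cells had 1 Asgr2 UMI against 3030 in the 1109 Co-Mac cells. Mgl2 was 7.07-fold lower there (6.18 to 8.12), at 130 against 915 CPM, and Clec10a 8.06-fold lower (4.37 to 16.8). The VD-Mac cells that clustered with untreated macrophage-like cells thus also had low lectin counts. They differed in other genes too, with the mannose receptor Mrc1 at 24.1 against 158 CPM. Lgals3, which encodes galectin-3, was at 13906 against 9092 CPM. Whether the cells of the 2 cultures in this cluster are the same cell type was not tested.

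**Figure D1:**
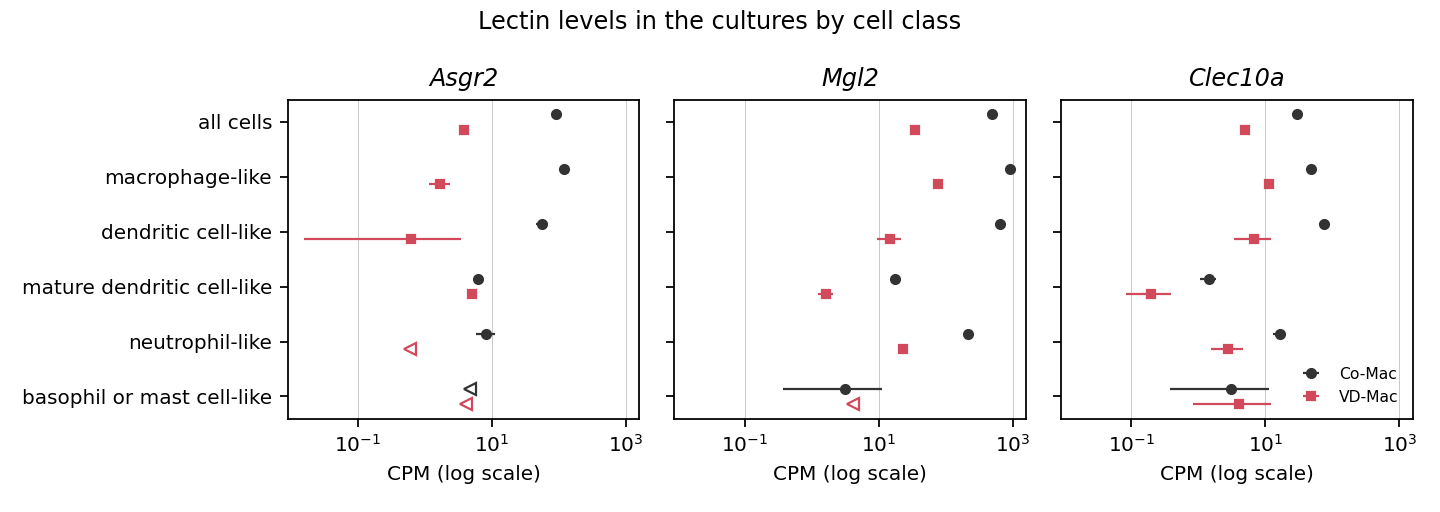
Levels of Asgr2, Mgl2, and Clec10a in Co-Mac (circles) and VD-Mac (squares) over all kept cells and in 5 named classes, as CPM on a log axis with exact 95% Poisson intervals for counting error. Open triangles mark classes with 0 UMIs, placed at the level that 3 UMIs would give. Macrophage-like cells went from 121 to 1.69 CPM for Asgr2. Mature dendritic cell-like cells, mostly of different clusters in the cultures, had 6.23 and 5.00 CPM, both under the minimum of 10 CPM.

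In the main clustering, most lectin UMIs of Co-Mac lay outside the named macrophage-like class, in unnamed clusters. This placement depended on the clustering. With each culture clustered alone, the macrophage-like class took in 2333 Co-Mac cells in place of 1115. It then held most of the lectin UMIs, with 11106 of 12160 for Asgr2, 60432 of 65186 for Mgl2, and 3372 of 3894 for Clec10a. Cluster 4, unnamed because markers of neutrophil precursors and of monocytes scored alike, held 19.2% of Co-Mac cells and 0.306% of VD-Mac cells. Its leading genes included Ms4a3, Ccr2, Cdh1, Ear2, the cell cycle gene Top2a, and the lectins Asgr2 and Mgl2. It held 61.7% of the Asgr2 UMIs of Co-Mac, 53.4% of those of Mgl2, and 54.3% of those of Clec10a. Cluster 7, unnamed because markers of neutrophil precursors and of neutrophils scored alike, was led by Cyp24a1, the neutrophil genes S100a9, Lcn2, and S100a8, and cell cycle genes such as Cenpf. It held 1.70% of Co-Mac and 10.2% of VD-Mac cells. Between the Co-Mac cells of cluster 4 and the VD-Mac cells of cluster 7, Asgr2 was 43.9-fold lower (35.1 to 55.7), Mgl2 10.6-fold lower (10.0 to 11.1), and Clec10a 5.02-fold lower (4.32 to 5.85). The lectins kept the same order of decrease as in macrophage-like cells. These clusters were each mostly of 1 library and had different leading genes, so they are not taken as like cells, and whether they are the same cell type was not tested.

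Each of the clusters also held some cells of the other culture. In cluster 4 the 27 VD-Mac cells had 0 Asgr2 UMIs, 31.4-fold lower when 3 UMIs are taken for the count of 0, with an exact lower limit of 25.5-fold. Mgl2 was 19.0-fold lower (12.7 to 30.0) and Clec10a 4.42-fold lower (2.03 to 12.1). Within cluster 7 the 123 Co-Mac cells had lower levels than those of cluster 4. Asgr2 was at 24.9 CPM in them and 3.71 CPM in the 902 VD-Mac cells, 6.71-fold lower (4.67 to 9.60). Mgl2 was at 161 and 71.7 CPM, 2.24-fold lower (2.00 to 2.52). Clec10a was at 12.4 and 9.15 CPM, a ratio of 1.36 (0.880 to 2.03) whose interval includes no difference. The cultures differed in other genes within cluster 7 too, with Lgals3, which encodes galectin-3, at 1179 and 5582 CPM and Mrc1 at 6.22 and 22.6 CPM, both higher in VD-Mac. Cells that share a cluster are therefore not taken as alike.

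The other unnamed clusters with cells of both cultures showed the decrease as well, in differing size. In cluster 8, Asgr2 was 24.5-fold lower (18.1 to 33.9), Mgl2, at 437 and 43.3 CPM, 10.1-fold lower, and Clec10a 4.72-fold lower (3.63 to 6.18). In cluster 10, which had 42 Co-Mac and 458 VD-Mac cells, the order was another, with Mgl2 43.9-fold lower (33.7 to 57.8), Clec10a 15.9-fold lower (8.32 to 31.5), and Asgr2 9.86-fold lower (6.81 to 14.3). Cluster 2 held cells of few UMIs, with a median of 2825 in Co-Mac and 1840 in VD-Mac. There Asgr2 was at 294 CPM (270 to 320) in Co-Mac and 9.72 CPM (6.60 to 13.8) in VD-Mac, Mgl2 at 170 and 53.0 CPM, and Clec10a at 14.7 and 7.21 CPM. Clusters 12 and 14 were almost wholly of 1 library each and had at most 5 UMIs of any of the lectins in it.

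Dendritic cell-like cells, all in cluster 11, had fewer UMIs of all 3 genes in VD-Mac, with the UMIs of Co-Mac in few cells. Asgr2 was at 55.8 CPM (45.4 to 67.8) in the 98 Co-Mac cells and at 0.614 CPM (0.0155 to 3.42), a count of 1, in the 123 VD-Mac cells, 90.8-fold lower (15.9 to 3623). Mgl2 was at 649 CPM (612 to 687) and 14.7 CPM (9.44 to 21.9), 44.1-fold lower (29.5 to 69.0). Clec10a was at 76.4 CPM (64.1 to 90.3) and 6.75 CPM (3.37 to 12.1), 11.3-fold lower (6.13 to 23.2). Here 9.50% of 7607 genes were at least 2-fold lower. Of the 98 Co-Mac cells only 11 had an Asgr2 UMI, and 5 of them held 90.0% of the 100 UMIs, so that the fold for Asgr2 rests on a few cells. After thinning to 2000 UMIs per cell, which left out 0 cells, Asgr2 was found in 3 of 98 cells (3.06%, 0.636 to 8.69) and in 0 of 123, which allows up to 2.44%. For Mgl2, 11 cells held 50% of the 1164 UMIs of Co-Mac, and VD-Mac had 24 UMIs of Mgl2 and 11 of Clec10a.

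In mature dendritic cell-like cells the comparison depended on the clusters, which differed between the cultures. Cluster 1 held 2602 of 2622 such cells in Co-Mac, and cluster 0 held all 2858 in VD-Mac. Asgr2 was at 6.23 CPM (5.49 to 7.05) in Co-Mac and 5.00 CPM (4.34 to 5.74) in VD-Mac, 1.25-fold lower (1.03 to 1.51). Mgl2 was at 17.6 CPM (16.3 to 18.9) and 1.62 CPM (1.25 to 2.06), 10.8-fold lower (8.42 to 14.2). Clec10a had 58 and 8 UMIs, at 1.42 and 0.196 CPM, 7.26-fold lower (3.45 to 17.6). Neither level was above that of basophil or mast cell-like cells, which serve as background below. Those cells were at 3.12 CPM (0.378 to 11.3) in Co-Mac and 4.10 CPM (0.846 to 12.0) in VD-Mac. For Asgr2 they had 0 UMIs, with exact upper limits of 5.76 and 5.05 CPM. These limits overlap the Asgr2 intervals of mature dendritic cell-like cells. In this class 2.63% of 6621 genes were at least 2-fold lower. Mgl2 passed that fold and Asgr2 did not, and Asgr2 and Clec10a were under the minimum of 10 CPM in both cultures. Within cluster 0 alone Asgr2 was lower in VD-Mac as well. The 20 Co-Mac cells there had Asgr2 at 40.6 CPM (22.7 to 67.0), from 15 UMIs in 3 cells, so that VD-Mac was 8.12-fold lower (4.46 to 13.7). Mgl2 was at 67.7 CPM (43.8 to 100) in them and 41.8-fold lower (25.3 to 67.2) in VD-Mac, while Clec10a had 1 UMI. These 20 cells also had Mki67, a gene of dividing cells, at 117 CPM against 2.08 CPM in the VD-Mac cells, and Mrc1 at 10.8 against 0.172 CPM from 4 and 7 UMIs. They were thus unlike the VD-Mac cells of the cluster in more than the lectins, and whether they are the same cell type was not tested.

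A part of the remaining Asgr2 UMIs of VD-Mac lay in mature dendritic cell-like cells, where few of Mgl2 and Clec10a were. Mature dendritic cell-like cells held 44.9% (40.3 to 49.6) of the Asgr2 UMIs of VD-Mac, against 2.09% (1.84 to 2.36) in Co-Mac. The same cells held 1.62% of the Mgl2 UMIs and 1.40% of the Clec10a UMIs of VD-Mac, against 1.10% and 1.49% in Co-Mac. In the main clustering most of the other UMIs of all 3 genes lay in unnamed clusters. These held 47.8% of the Asgr2, 59.0% of the Mgl2, and 55.4% of the Clec10a UMIs of VD-Mac. At resolution 0.3 most Mgl2 and Clec10a UMIs of VD-Mac were instead in macrophage-like cells, with 3182 of 4079 and 428 of 572. Of the 454 Asgr2 UMIs, macrophage-like cells then held 126 and mature dendritic cell-like cells 263. Mature dendritic cell-like cells of VD-Mac had 204 Asgr2 and 66 Mgl2 UMIs, whereas its macrophage-like cells had 32 and 1465, so that the genes were not in 1 ratio across classes. The counts moved with the clustering. At resolution 0.3 they were 263 and 124 against 126 and 3182, again not in 1 ratio. Neutrophil-like cells of VD-Mac had 0 Asgr2 UMIs of 4988472, which allows up to 0.601 CPM. The Asgr2 counts of mature dendritic cell-like cells were spread thin, over 170 cells.

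Basophils and mast cells are not known for these receptors and served as background. Basophil or mast cell-like cells had 0 Asgr2 UMIs in both cultures, which allows up to 4.69 CPM in Co-Mac and 4.10 CPM in VD-Mac. Mgl2 had 2 and 0 UMIs in them and Clec10a 2 and 3, in 61 and 89 cells with a median of 8544 and 6258 UMIs. Neutrophil-like cells had more. Cluster 3 held 389 of these cells in Co-Mac and all 1159 in VD-Mac, and cluster 9 held the other 549 of Co-Mac, with 16 UMIs of Mgl2 and 0 of Asgr2 and Clec10a. Over the class Mgl2 was at 220 CPM (207 to 233) in Co-Mac and 23.3 CPM (19.2 to 27.9) in VD-Mac. Of the 1088 Mgl2 UMIs in Co-Mac neutrophil-like cells, 82.4% were in 39 cells with at least 10 each. Asgr2 was at 8.07 CPM in these Co-Mac cells and 13.4-fold lower in VD-Mac when 3 UMIs are taken for the count of 0. The exact lower limit of the fold was 10.4. Mgl2 was 9.44-fold lower (7.79 to 11.5) and Clec10a, at 16.5 and 2.81 CPM, 5.90-fold lower (3.32 to 11.3). As a mean over cells the log2 ratio of Clec10a was -3.55 in place of -2.56. Within cluster 3, which sets aside the cluster found in Co-Mac only, Mgl2 was 12.5-fold lower (10.3 to 15.2) and Clec10a 7.90-fold lower (4.45 to 15.1). Asgr2 was 18.0-fold lower there on the same 3 UMIs, with an exact lower limit of 14.0-fold. Whether the few cells with many UMIs are doublets was not tested.

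Cells were thinned to 2000 UMIs to compare shares of cells with a UMI at equal depth. A limit given for 0 thinned cells covers that draw of UMIs and not the share of cells that express the gene. No macrophage-like cell of either culture fell below this depth, and their medians were 20438 and 15225.5 UMIs. Asgr2 was found in 11.9% (133 of 1115) of thinned macrophage-like cells of Co-Mac and in 0 of 1122 of VD-Mac, which allows up to 0.267% for this draw of UMIs. Another draw, to 1000 UMIs, found it in 4 of the 1122 cells, so that the 0 belongs to 1 draw and Asgr2 was rare but not absent. The unthinned shares were 28.9% and 2.14%. Mgl2 was found in 59.2% and 10.5% of thinned cells (83.8% and 39.5% without thinning), and Clec10a in 8.70% and 2.32% (42.2% and 14.6%). Thinned basophil or mast cell-like cells, 53 and 69 in number with 8 and 20 left out, had 0 with Asgr2 or Mgl2 in both cultures, and 0 and 1 with Clec10a. This background is small, so other classes are set beside it. In Co-Mac, thinned mature dendritic cell-like cells, with 9 left out and a median of 14453.5 UMIs, had Asgr2 in 0.957%, Mgl2 in 2.49%, and Clec10a in 0.268% of 2613 cells (6.56%, 11.3%, and 1.49% without thinning). Thinned neutrophil-like cells of Co-Mac, with 267 left out and a median of 3020.5 UMIs, had them in 1.34%, 11.3%, and 1.94% of 671 cells (2.35%, 13.2%, and 4.16%). In VD-Mac, thinned Asgr2 was found in 0.843% of mature dendritic cell-like cells (5.95% without thinning). These cells of VD-Mac, with 12 left out and a median of 13245.5 UMIs, had Mgl2 in 0.351% of 2846 and Clec10a in 0 of them. Without thinning the shares were 2.10% and 0.280%. The 0 allows up to 0.105% for this draw, below the unthinned share, so it does not limit the share of cells with Clec10a. Thinned neutrophil-like cells of VD-Mac, with 295 left out and a median of 2938 UMIs, had Mgl2 in 1.16% of 864 and Asgr2 and Clec10a in 0 of them, which allows up to 0.347%, against 2.07% for Mgl2 and 0.690% for Clec10a without thinning.

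Cells with many UMIs were rare in VD-Mac. In Co-Mac, 115 macrophage-like cells had at least 10 Asgr2 UMIs and held 81.6% of its UMIs in the class, with 9.43 UMIs per cell with a UMI. In VD-Mac 0 cells of the class had that many, with 1.33 UMIs per cell with a UMI. For Mgl2, 623 cells in Co-Mac and 24 in VD-Mac had at least 10 UMIs. Clec10a had 15 such cells in Co-Mac and 1 in VD-Mac.

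In untreated macrophage-like cells Asgr2 and Mgl2 were found together, while pairing with Clec10a depended on the thinning depth. Among thinned macrophage-like cells of Co-Mac, 87.2% (80.3 to 92.4) of the 133 cells with Asgr2 also had Mgl2, against 55.4% (52.2 to 58.5) of the 982 cells without it. Thinned to 1000 UMIs, the shares were 70.7% (60.2 to 79.7) of 92 cells and 42.4% (39.4 to 45.5), again without overlap. Of the 97 cells with Clec10a, 75.3% (65.5 to 83.5) had Mgl2, against 57.7% (54.6 to 60.7) of the others. At 1000 UMIs these shares were 47.5% (34.6 to 60.7) of 61 cells and 44.6% (41.6 to 47.7), with intervals that overlapped. Mgl2 and Clec10a share sequence, as given below, and how reads from it were assigned was not tested. Asgr2 was found in 23.7% (15.7 to 33.4) of cells with Clec10a and in 10.8% (8.97 to 12.9) of those without, but at 1000 UMIs in 9.84% (3.70 to 20.2) and 8.16% (6.58 to 9.98). In other groupings the shares of Mgl2 by Clec10a differed at 1000 UMIs too. In unnamed clusters of Co-Mac Mgl2 was found in 45.7% (33.7 to 58.1) of 70 cells with Clec10a and in 28.9% (27.1 to 30.8) of 2309 without. Over all Co-Mac cells, which mix classes of differing level, Mgl2 was found in 43.4% (35.4 to 51.7) of 152 cells with Clec10a and in 18.0% of 7043 without, and Asgr2 in 9.87% and 4.30%. In VD-Mac only 26 thinned macrophage-like cells had Clec10a, and 1 of them had Mgl2 (3.85%, 0.0973 to 19.6), against 10.7% (8.91 to 12.7) of the others, which leaves the pairing undetermined at this depth.

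Some genes of a vitamin D response list, chosen with earlier results of these data known, differed between the cultures. Cyp24a1, which encodes the enzyme that breaks down active vitamin D, had 1 UMI in Co-Mac and 36662 in VD-Mac, a log2 ratio of 15.35 (12.87 to 20.65). Of 10 genes listed for the vitamin D response 7 reached 10 CPM, of which 3 were at least 2-fold higher and 1 at least 2-fold lower, against 2.16% and 4.63% of all 7732 genes. Vdr, the vitamin D receptor, went from 51.1 to 135 CPM and Hbegf, a growth factor, from 4.34 to 74.3 CPM, while Rxra, the partner of the receptor, went from 12.9 to 4.34 CPM. Among thinned macrophage-like cells of VD-Mac, Mgl2 was found in 9.74% (7.46 to 12.4) of the 585 cells with a Cyp24a1 UMI and in 11.4% (8.80 to 14.4) of the 537 without. Clec10a was found in 2.39% and 2.23%. Asgr2 could not be split in this way, as the draw held 0 cells of the class with it. Without thinning 83.1% of these cells had a Cyp24a1 UMI, so that many cells counted as without it lost it to the thinning. Over all thinned VD-Mac cells, with 1149 left out, Mgl2 was found in 7.69% (6.53 to 8.98) of 1912 cells with Cyp24a1 and in 2.81% (2.40 to 3.27) of 5764 without. Clec10a was found in 1.94% and 0.434% of them, and Asgr2, with intervals that overlapped, in 0.418% (0.181 to 0.823) and 0.607% (0.423 to 0.843). In unnamed clusters, with 822 left out, the intervals overlapped for Mgl2, at 7.91% of 1125 and 5.24% of 1527 cells, and for Asgr2, at 0.711% and 0.720%. There Clec10a was at 1.96% (1.23 to 2.95) and 0.655% (0.314 to 1.20). Over all cells, macrophage-like cells were 585 of the cells with and 537 of the cells without Cyp24a1, and the part of class make-up in these shares was not tested.

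Other genes of galactose recognition and of the making of its ligands were taken as a list for comparison. Of 32 listed genes 21 reached 10 CPM, 2 were at least 2-fold lower and 0 at least 2-fold higher, against 4.63% and 2.16% of all 7732 genes, and their median log2 ratio was -0.11 against -0.10 for all genes. The lower genes were Lgals1, which encodes galectin-1, at 427 and 188 CPM, and Galnt3, which starts mucin-type O-glycans, at 13.6 and 6.63 CPM.

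Of 25 genes listed for alternative activation 19 reached 10 CPM, of which 6 were at least 2-fold lower and 1 at least 2-fold higher, where all 7732 genes gave 4.63% and 2.16%, with a median log2 ratio of -0.50 beside -0.10. The adhesion molecule Cdh1 went from 50.5 to 2.50 CPM, the eosinophil-associated ribonuclease Ear2 from 56.3 to 5.76 CPM, and the mannose receptor Mrc1, another C-type lectin, from 62.7 to 14.1 CPM. The transcription factor Klf4 went from 62.4 to 23.2 CPM, the ligand Pdcd1lg2 from 49.3 to 18.6 CPM, and the chemokine Ccl17 from 3078 to 1358 CPM. Tgm2, a transglutaminase, went the other way, from 11.7 to 41.1 CPM. Cdh1 and Ear2 were among the leading genes of cluster 4, which held 19.2% of Co-Mac and 0.306% of VD-Mac cells. The part of cluster make-up in the change of these genes was not tested. The alternative activation list, like the others, was chosen with earlier results of these data known. Its share of lower genes is therefore a description and is not read as an excess. Of 12 cell cycle genes, 0 passed the fold in either direction, beside the same 4.63% and 2.16%, with a median log2 ratio of -0.33.

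The lectins stand in the order Asgr1, Asgr2, Mgl2, Clec10a on the forward strand of chromosome 11. In GENCODE M21 on build GRCm38, matched by gene identifier, Asgr1 spans chr11:70054085-70057894, Asgr2 chr11:70092644-70106187, Mgl2 chr11:70130329-70137550, and Clec10a chr11:70156197-70170834. Gaps of 34.8, 24.1, and 18.6 kb separate them, and 0 other listed genes lie wholly between them. Within 200 kb of the group are 27 other listed genes, of which 9 reached 10 CPM and 0 were at least 2-fold lower or higher, where 4.63% of all 7732 genes were lower and 2.16% higher. The lowest log2 ratio was that of Eif5a (-0.94), a translation factor, and the highest that of Ctdnep1 (0.30), a phosphatase of the nuclear envelope. The others were Acap1 (-0.81), Phf23 (-0.35), 0610010K14Rik (-0.29), Elp5 (-0.12), Acadvl (-0.04), Gabarap (0.03), and Gps2 (0.12), with a median over the 9 genes of -0.12. Dlg4, the gene nearest to Asgr1, was under the minimum, with 235 UMIs in Co-Mac and 79 in VD-Mac, a log2 ratio of -1.39 (-1.77 to -1.01).

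**Figure D2:**
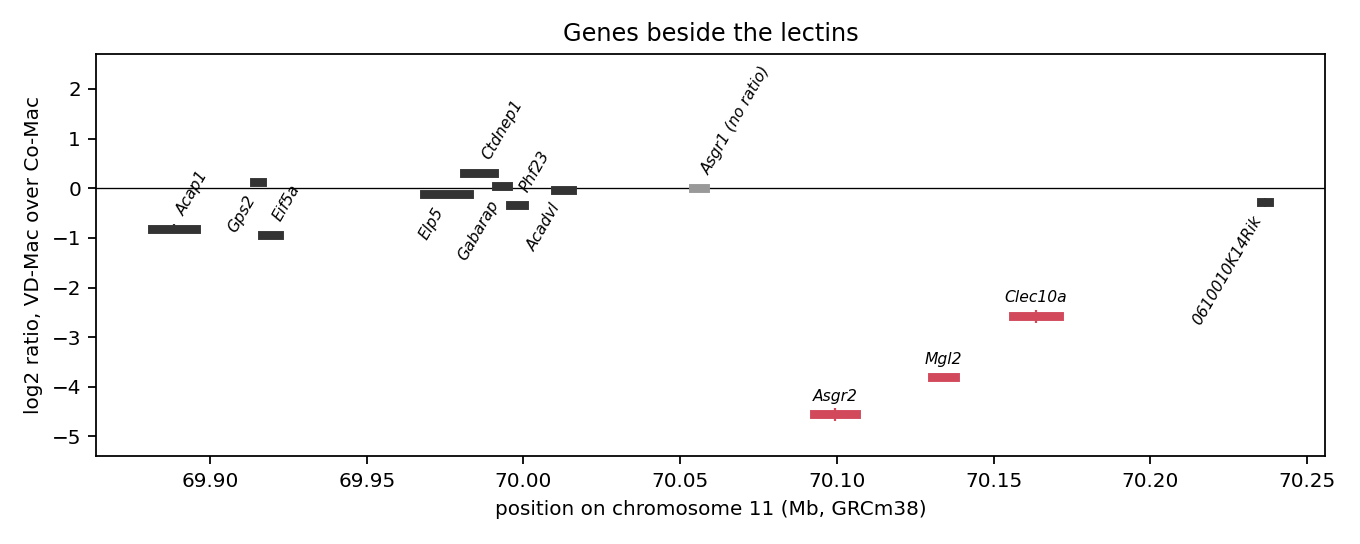
Log2 ratio of VD-Mac over Co-Mac (vertical axis, all kept cells, bars for exact 95% intervals of counting error) of the lectins and of the 9 other genes with at least 10 CPM within 200 kb, drawn at their span on chromosome 11 (horizontal axis, Mb). Asgr1, shown in gray at 0, had too few UMIs for a ratio. The lectins lie at -4.56, -3.81, and -2.58 and the other genes between -0.94 and 0.30.

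Sequence sets how well the 4 genes can be told apart in these counts. In the GENCODE M21 transcripts, Mgl2 and Clec10a share 419 stretches of 31 bases, 19.3% of the 2166 of Mgl2 and 13.7% of the 3064 of Clec10a, and the longest identical run is 183 bases. In the longest transcripts the shared part ended 784 bases before the 3′ end of Mgl2 and 294 bases before that of Clec10a, but in some shorter annotated transcripts it lay within 39 bases of the end for Mgl2 and at the end for Clec10a. The libraries were made from the 3′ end, and how reads from the shared part were assigned was not tested, so the counts of Mgl2 and Clec10a are uncertain to that extent. Asgr2 shares 0 such stretches with any of the others, with a longest run of 22 bases with Asgr1, so its counts are not touched by this.

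Promoters of 3 of the 4 lectins were matched in RefSeq (build GRCm38.p6, forward strand) and are printed because these neighbours were low together or, for Asgr1, close to undetected in the cultures, which lets their starts be compared. Each is the 250 bases before an annotated start, with capitals for matches on either strand to AGGTCA and AGTTCA, cores to which nuclear receptors bind, GGAAGT, an ETS core, TGANTCA, an AP-1 core, or 1 form of the STAT core, in which TTC and GAA are 4 bases apart. The form with 3 bases between them was not counted. The set of letters was chosen with these sequences in view.
Asgr1, chr11:70053874-70054123: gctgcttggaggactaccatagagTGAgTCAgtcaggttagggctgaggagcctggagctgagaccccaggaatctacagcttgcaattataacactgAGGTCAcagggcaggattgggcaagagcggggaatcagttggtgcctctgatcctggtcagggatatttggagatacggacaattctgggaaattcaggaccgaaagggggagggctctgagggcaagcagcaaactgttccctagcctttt
Asgr2, chr11:70092394-70092643: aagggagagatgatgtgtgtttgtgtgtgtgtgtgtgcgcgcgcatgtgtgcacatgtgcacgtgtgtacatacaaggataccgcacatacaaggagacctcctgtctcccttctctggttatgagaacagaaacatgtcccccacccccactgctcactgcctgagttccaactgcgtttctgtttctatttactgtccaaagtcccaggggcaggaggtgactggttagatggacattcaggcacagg
Mgl2, chr11:70130107-70130356: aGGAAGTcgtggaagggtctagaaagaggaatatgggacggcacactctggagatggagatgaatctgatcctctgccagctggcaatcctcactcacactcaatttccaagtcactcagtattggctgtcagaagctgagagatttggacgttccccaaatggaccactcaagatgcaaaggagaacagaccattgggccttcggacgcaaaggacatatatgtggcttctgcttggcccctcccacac
The Asgr1 window holds 1 match each to AGGTCA and TGANTCA, the Mgl2 window 1 match to GGAAGT, and the Asgr2 window 0 matches to the 5 motifs. Another annotated start of Asgr1, with the window chr11:70054105-70054354 not printed here, had 1 match each to AGGTCA and GGAAGT. Among 32851 windows of this length, AGGTCA was found in 14.0%, AGTTCA in 11.8%, GGAAGT in 19.7%, TGANTCA in 6.75%, and this form of the STAT core in 5.85%. A match describes letters and is not a binding site, and absence holds for these windows alone.

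In the graft, Clec10a and Mgl2 were both present and Asgr1 and Asgr2 were sparse. Over all kept cells of hSTSG Mgl2 was at 126 CPM (121 to 130) with 2844 UMIs and Clec10a at 109 CPM (105 to 113) with 2468 UMIs. Asgr2 was at 1.24 CPM with 28 UMIs. The library was not treated with VD3, its cells came from tissue, and levels between it and the cultures are set side by side without a ratio.

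By class, Clec10a stood highest in resident macrophage-like cells, the class named from markers such as Cd163, Lyve1, and Folr2. It was at 362 CPM (344 to 380) in these 238 cells, which were 11.1% of graft cells and held 63.5% (61.6 to 65.4) of Clec10a UMIs. Within the class, 83.4% of the 1568 UMIs were in 43 cells with at least 10 each. Next came an unnamed subset cluster led by immunoglobulin genes, Klrd1, and Cd209a (subset cluster 3, 122 cells, 190 CPM, 170 to 211), and then monocyte-like cells (271 cells, 125 CPM, 112 to 139). An unnamed subset cluster led by Mmp13 and Ccl24 (subset cluster 4, 80 cells) had 52.8 CPM (38.7 to 70.5), and Trem2 macrophage-like cells (234 cells) had 11.2 CPM (8.24 to 14.8). Among these 5 groups no intervals overlapped. T cell-like cells, which should lack the gene, had 5.30 CPM (2.54 to 9.74), which overlaps the interval of Trem2 macrophage-like cells. A cluster of 165 cells with few UMIs (median 1554), also unnamed, had 45.2 CPM (27.6 to 69.7), fibroblast-like cells 6.63 CPM (4.25 to 9.87, with 87.5% of the 24 UMIs in 1 cell), neutrophil-like cells 2.66 CPM (0.726 to 6.82), and mature dendritic cell-like cells 0 UMIs, which allows 6.97 CPM. The 50 Clec10a UMIs of endothelial-like cells came from 2 cells, 1 of which held 98.0% of them.

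Within the resident class the level was uneven. Subset cluster 5, with 64 cells led by genes such as Lyve1 and Cd209f, had Clec10a at 1450 CPM (1368 to 1536) and subset cluster 2, with 174 cells led by genes such as Vcam1 and Ccl12, at 116 CPM (105 to 128). The rank of the class thus rests on the 64 cells of subset cluster 5, since subset cluster 2 lay below the unnamed subset cluster 3 and overlapped monocyte-like cells. After thinning, Clec10a was found in 83.6% (71.2 to 92.2) of 55 cells of subset cluster 5, with 9 left out, and 17.3% (12.0 to 23.8) of 173 cells of subset cluster 2, with 1 left out (85.9% and 43.1% without thinning). T cell-like cells had 0.339% of 295 after thinning, with 6 left out, and 1.33% without, at a median of 5552 UMIs against 8979 in subset cluster 5 and 17091.5 in subset cluster 2.

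Mgl2 had another order. By CPM it was highest in the unnamed subset cluster 3 at 588 CPM (554 to 624), followed by monocyte-like cells at 284 CPM (264 to 304). The unnamed subset cluster 4 at 162 CPM (136 to 191), resident macrophage-like cells at 154 CPM (143 to 167), and the cluster of few UMIs at 113 CPM (83.8 to 149) followed with overlapping intervals. Within the resident class, subset cluster 5 was at 348 CPM (309 to 392) and subset cluster 2 at 111 CPM (99.9 to 122). Mature dendritic cell-like cells had 18.6 CPM (8.02 to 36.6), Trem2 macrophage-like cells 14.4 CPM (11.1 to 18.5), and T cell-like cells 12.2 CPM (7.72 to 18.3), again with overlapping intervals. Fibroblast-like cells had 2.49 CPM (1.14 to 4.72) and neutrophil-like cells 0 UMIs, which allows 2.00 CPM. In T cell-like cells, 73.9% of the 23 Mgl2 UMIs were in 1 cell. Of the 1273 Mgl2 UMIs of all unnamed cells, 85.3% were in 36 cells with at least 10 each. Thinned shares with Mgl2 overlapped, at 26.2% (21.1 to 31.9) of monocyte-like, 25.3% (20.1 to 31.1) of all unnamed, and 22.4% (17.1 to 28.3) of resident macrophage-like cells. By thinned share, Mgl2 was in 5.65% (3.04 to 9.47) of 230 Trem2 macrophage-like cells, with 4 left out, and in 0.678% (0.0822 to 2.43) of T cell-like cells, with 14.1% and 1.66% unthinned. Trem2 macrophage-like cells thus had low levels of both lectins, with Mgl2 found in more cells than in T cell-like cells.

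The receptor subunits gave few counts in the graft. Resident macrophage-like cells held 11 of the 23 Asgr1 UMIs (2.54 CPM, 1.27 to 4.54) and 12 of the 28 Asgr2 UMIs (2.77 CPM, 1.43 to 4.84). Monocyte-like cells had 0 and 6 UMIs, Trem2 macrophage-like cells 2 and 0, fibroblast-like cells 4 and 0, and T cell-like and neutrophil-like cells 0 of both. Unnamed cells had 6 and 10 UMIs, with Asgr2 at 3.17 CPM (1.52 to 5.83), and 9 of the 10 were in 3 cells of subset cluster 3. These are counts too low to order the classes. Set beside the cultures, macrophage-like cells of Co-Mac had Asgr2 at 121 CPM and those of VD-Mac at 1.69 CPM.

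**Figure D3:**
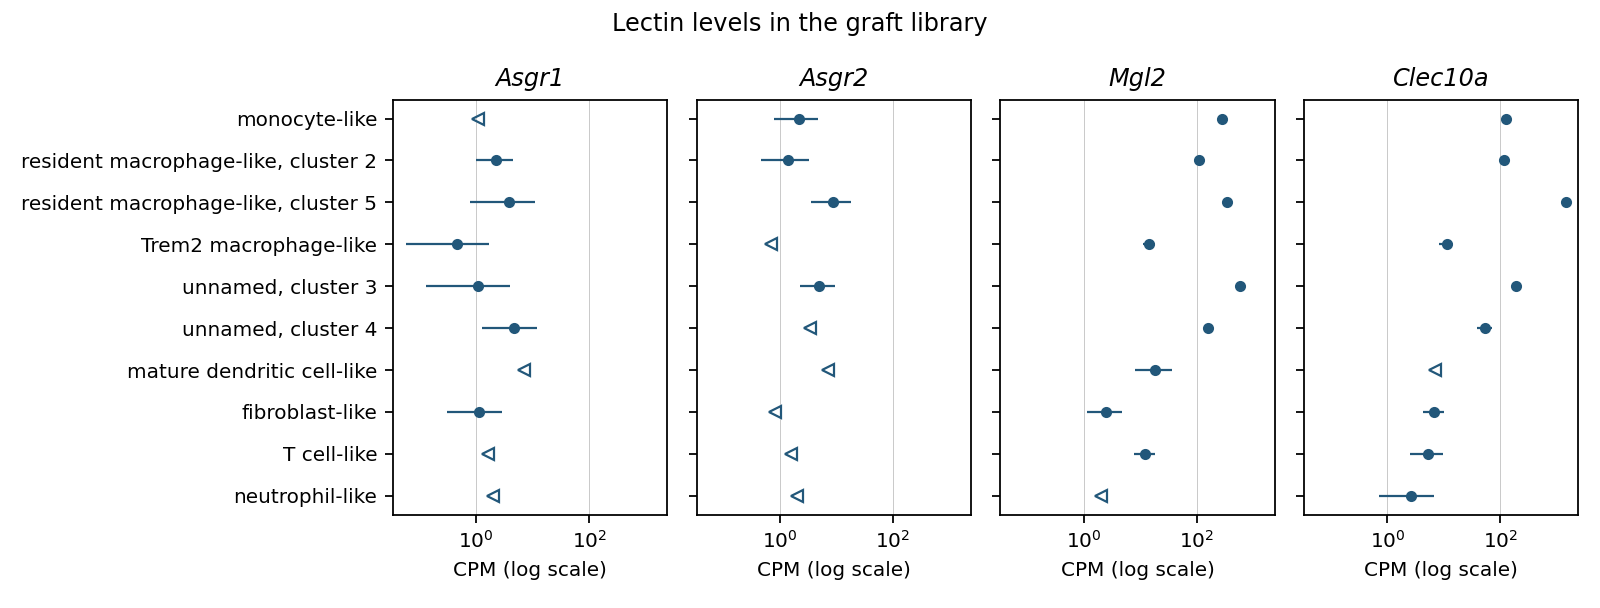
Levels of the 4 lectins in classes and subset clusters of the graft library as CPM on a log axis, with exact 95% Poisson intervals for counting error. Open triangles mark 0 UMIs, placed at the level that 3 UMIs would give. Clec10a was highest in resident macrophage-like subset cluster 5 at 1450 CPM and Mgl2 in the unnamed subset cluster 3 at 588 CPM.

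In resident macrophage-like cells of the graft, taken as 1 class, Mgl2 and Clec10a were found together. After thinning, 52.9% (38.5 to 67.1) of the 51 cells with Mgl2 had Clec10a, against 27.7% (21.2 to 34.9) of the 177 cells without it. At 1000 UMIs the shares were 46.3% (30.7 to 62.6) and 18.7% (13.4 to 24.9), without overlap. The class joins subset clusters 5 and 2, of which the first had more of both lectins. Pairing within a subset cluster was not tested, so that mixing and pairing cannot be told apart here. How reads from the sequence shared by Mgl2 and Clec10a were assigned was not tested either. In monocyte-like cells the shares were 21.1% (12.3 to 32.4) of 71 cells and 10.0% (6.22 to 15.0) of 200 cells, with overlapping intervals.

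Levels by graft class depended on where the clusters were drawn. The level of Clec10a in resident macrophage-like cells moved from 362 CPM to as low as 151 CPM with mitochondrial UMIs under 5% and as high as 1473 CPM at resolution 0.3, and Mgl2 in monocyte-like cells from 284 to 5.80 CPM at resolution 0.8, where 53 cells kept that name. With mitochondrial UMIs under 5%, Clec10a in monocyte-like cells was at 122 CPM, and in Trem2 macrophage-like cells Mgl2 was at 33.4 CPM and Clec10a at 20.7 CPM. A grouping without subset clusters was therefore added after these values were seen, by how many of the 10 resident macrophage markers a thinned cell of the lineage showed. Clec10a was at 365 CPM (347 to 383) in the 276 cells with at least 4 markers. It was at 34.9 CPM (26.6 to 45.0) in the 115 cells with 3, at 66.6 CPM with 2, at 112 CPM with 1, and at 48.3 CPM in the 188 cells with 0. Mgl2 was at 174 CPM (162 to 187) with at least 4 markers and highest, at 379 CPM (357 to 402), in the 198 cells with 1. By thinned share, with 28 cells of the lineage left out, Mgl2 was found in 27.9% (22.7 to 33.6) with at least 4 markers, 20.7% (15.3 to 27.0) with 1, and 10.1% with 0. In this grouping Clec10a was highest in cells with at least 4 resident markers, and for Mgl2 the order depended on the measure. The markers are those that name the resident class, so the grouping is not separate support for it. It was made with the main filters alone and not with mitochondrial UMIs under 5%.

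The genes most like each lectin were taken over 16 profiles, the named classes by library with at least 50 cells. Likeness was the Pearson correlation of log2(CPM + 1) among 11232 genes, as a description, since profiles share libraries and depth. Asgr2 was most like Wnt6 (r = 0.909), Clec4b1 (0.891), Mucl1 (0.858), Aldh1b1 (0.815), and Tnfaip8l3 (0.798). Mgl2 was most like Ywhag (0.893), Hs3st3b1 (0.881), Pacsin2 (0.855), Slc15a4 (0.851), and Arf3 (0.848). Clec10a was most like Fcrls (0.873), Wdr41 (0.862), Gm6377 (0.858), Hfe (0.844), and Rab3il1 (0.843). Among the lectins, Mgl2 and Clec10a correlated at 0.775, Asgr2 and Mgl2 at 0.741, and Asgr2 and Clec10a at 0.436. Over 33 clusters by library, a grouping added after the data were seen, the gene most like Mgl2 was Msr1 (0.851), while Wnt6 (0.831) and Fcrls (0.894) stayed the most like Asgr2 and Clec10a.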

How the data were processed

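The values deposited for the 3 droplet libraries (10x Chromium 3′) are whole-number UMI counts without normalization, made with Cell Ranger 3.1.0 per the file headers. The submitters' processing notes name Seurat 3.1.1 and build mm9, whereas the gene identifiers are Ensembl mouse identifiers, of which 99.6% were in GENCODE M21 and gave the coordinates. The lectins and gene lists were chosen with earlier results of these data known.

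Hashtag UMIs were left out and doublets kept. Cells were log-normalized to 10000, and 2000 variable genes, without the lectins and listed genes, 15 principal components, 15 neighbors, and Louvain resolution 0.5 were used, with each culture's mean subtracted (Python 3.11.15, scikit-learn 1.9.0, igraph 0.11.9). Clusters took the name of the best marker set with a mean log2 ratio of at least 0.5, at least 3 detected markers, and a lead of 0.25, a rule settled after the clusters were seen. A gene was called at 2-fold if it reached 10 CPM in either culture. Named were the lectins, called genes of the lists, genes within 200 kb, and the 5 genes most like each lectin. The ratio script was tested on simulated data. Alternatives covered filters, cells with the most UMIs, scaling, means over cells, class make-up, clustering, and thinning.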

Additional observations from a re-analysis of the deposited data

How the results depend on the processing

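Of the alternatives to the values that answer the comparisons, 63 left the value within its counting interval and 38 moved it. The numbers of called genes have no such interval and were judged by the size of the change. The direction of every log2 ratio between the cultures was kept, while graft levels and shares have no direction to keep. The cause was not tested except where stated. Over all cells, the log2 ratios under the mitochondrial limit of 5% were -4.18 for Asgr2, -4.16 for Mgl2, and -2.72 for Clec10a, so that Asgr2 and Mgl2 then lay close together. Without the 5% of cells richest in UMIs Asgr2 was at -4.29. Mgl2 was at -3.77 with all barcodes, -3.57 as a mean over cells, -3.76 with median-of-ratios scaling, which shifted the median of all genes by 0.0533, and -3.69 with the class shares of Co-Mac. Clec10a was at -2.40 as a mean over cells.

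In macrophage-like cells Asgr2 was at -5.22 and Mgl2 at -3.49 with resolution 0.3, and at -5.36 and -3.47 with resolution 0.8. Asgr2 was at -5.37 in a clustering redone without the cells richest in UMIs, where the class also took in more VD-Mac cells, and Mgl2 at -3.79 and Clec10a at -2.43 with each culture clustered alone. In mature dendritic cell-like cells Mgl2 was at -3.02 without subtraction of library means, -2.98 with each culture alone, and -2.99 without the cells richest in UMIs, while Asgr2 stayed between -0.23 and -0.57. In dendritic cell-like cells Asgr2 had 0 UMIs in VD-Mac under 3 settings, which give no ratio. Among further alternatives for neutrophil-like cells 12 left the value within its interval and 2 moved it, Mgl2 from -3.24 to -3.57 with 30 components and Clec10a from -2.56 to -3.55 as a mean over cells.

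In graft resident macrophage-like cells Mgl2 was at 331, 222, and 211 CPM and Clec10a at 1473, 740, and 624 CPM with resolution 0.3, resolution 0.8, and 30 components, and Clec10a at 151 CPM with the mitochondrial limit of 5%. The added grouping by markers put Mgl2 at 174 CPM. In Trem2 macrophage-like cells Mgl2 was at 21.9 and 33.4 CPM and Clec10a at 18.4 and 20.7 CPM with 30 components and with that limit. In monocyte-like cells Mgl2 was at 5.80 and 190 CPM with resolution 0.8 and that limit, and Clec10a at 34.8 CPM with resolution 0.8. At resolution 0.3 and with 30 components no cluster took the monocyte-like name. Thinning to 1000 UMIs gave shares with Mgl2 of 70.7% among Asgr2 cells and 47.5% among Clec10a cells of Co-Mac macrophage-like cells. With at least 50 CPM required, 140 genes were lower and 75 higher in place of 358 and 167, since fewer genes entered. No paired analysis was possible because each condition is 1 library. Low counts limited what could be read for Asgr1, with 1 UMI in both cultures together, and for Asgr2 in the graft, with 28 UMIs. Whether depth was the reason was not tested.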
